A study of Rubus idaeus with 6 samples.

Results

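Expression of 4 light and photoperiod gene models was examined in axillary buds of red raspberry, PHYTOCHROME E (PHYE, Ro03_G13391), CYCLING DOF FACTOR 1 (CDF1, Ro04_G00056), a B-box zinc finger gene (Ro04_G36228) and LIGHT SENSITIVE HYPOCOTYLS 10 (LSH10, Ro03_G05247). They were taken by gene model identifier from a table of 19951, and all 4 were present. Each name is that of the closest Arabidopsis gene in the study's tables, AT4G18130, AT5G62430, AT1G68190 and AT2G42610 respectively. The libraries came from 3 bud samples of ‘Heritage’, an annual-fruiting (AF) cultivar, and 3 of ‘Wakefield’, a biennial-fruiting (BF) cultivar, described as biological replicates. The labels name no treatment, and both cultivars grew together in the field and were sampled on the same day in late spring. With a single cultivar for each fruiting habit, cultivar and habit cannot be told apart. The labels and methods do not state plant age, the hour of sampling or whether a sample came from 1 plant or several. The p-values weigh the difference between the cultivars against the spread between these samples. They do not reach other cultivars of either habit.

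Plants measure the length of the day with photoreceptors and a circadian clock, and long days are read out in Arabidopsis as accumulation of CONSTANS, a B-box transcription factor that switches on the flowering signal FT. Phytochromes such as PHYE sense red and far-red light, and CDF1 holds CONSTANS and FT down until the blue-light receptor FKF1 has it degraded. The B-box family is named for a zinc-binding domain that CONSTANS also carries. LSH10 belongs to a plant family of DNA-binding proteins called ALOG, whose founding member was named for its effect on the light response of the seedling stem. These roles are known from Arabidopsis and were not measured in raspberry.

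Each value is a normalized count, the reads of a gene model divided by a size factor for its library, with no correction for gene length. Levels are therefore compared between libraries and not between genes. Between 7345603 and 14977596 reads per library stood behind the table. Cultivars were compared with limma on log2(normalized count + 1) over the 17898 gene models that reached 10 in 3 or more libraries, and a gene model was called at an adjusted p under 0.05. Fold changes are ‘Heritage’ relative to ‘Wakefield’.

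Of the 4 gene models, CDF1 and the B-box gene were higher in AF ‘Heritage’ than in BF ‘Wakefield’ buds, and PHYE and LSH10 did not pass the test. Of all gene models tested 33.5% were called. Those higher in ‘Heritage’ were 16.0% of the gene models tested and those lower 17.5%, so that calls were frequent between these cultivars. The groups of CDF1 and of the B-box gene did not overlap, which was true of 53.2% of all gene models tested. In the part of the mapped LG3 and LG4 intervals used here, where all 4 lie, 30.5% of the gene models tested were called on LG3 and 30.5% on LG4. These are the broad intervals of the study. CDF1 and the B-box gene lie outside the narrower segment of LG4 to which the study mapped its locus there.

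**Figure D1:**
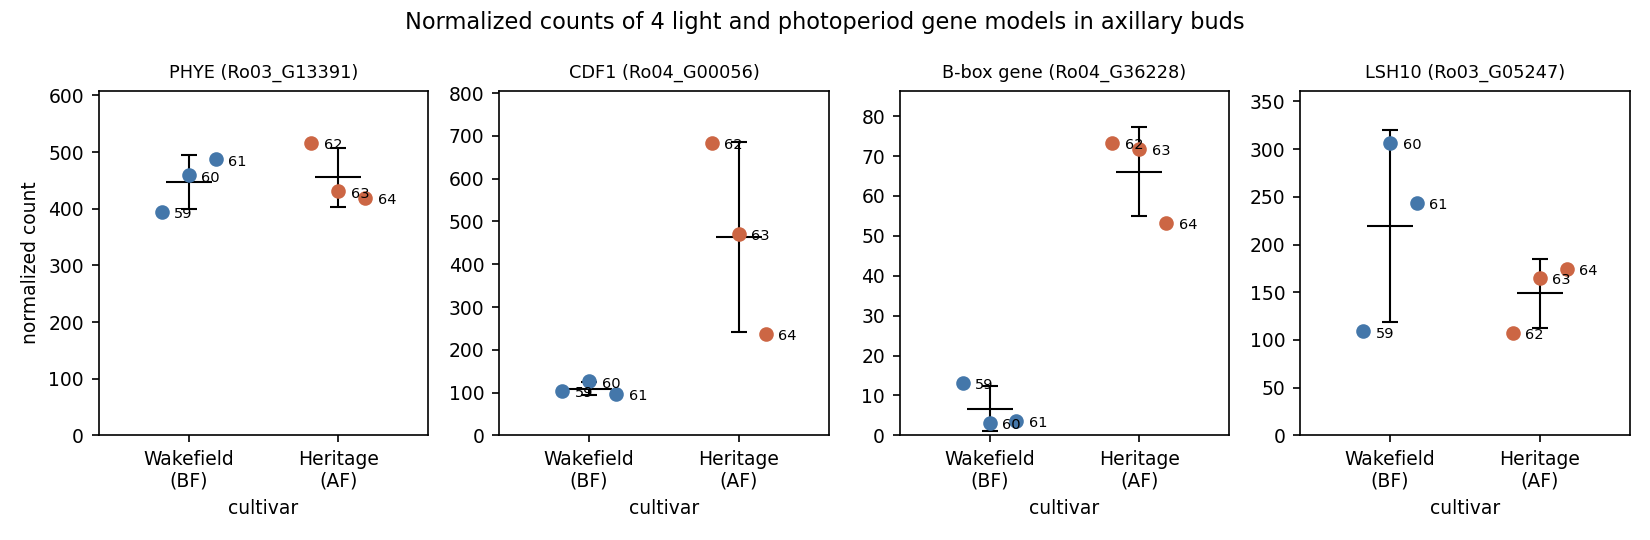
Normalized counts (y-axis, from 0, a separate scale in each panel) of the 4 gene models in 3 ‘Wakefield’ (BF, blue) and 3 ‘Heritage’ (AF, orange) libraries. Points are libraries with their number, and bars are the mean ± SD (n = 3). The groups are apart for CDF1 and the B-box gene and overlap for PHYE and LSH10.

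PHYE, on linkage group (LG) 3 and listed at 39474171 bp of the black raspberry assembly ORUS 4115-3 v3.0, was steady. Its normalized counts were 395, 459 and 487 in ‘Wakefield’ libraries 59, 60 and 61, and 516, 431 and 419 in ‘Heritage’ libraries 62, 63 and 64. The lowest and the highest library of each cultivar differed 1.23-fold, and the groups overlapped. The log2 fold change was 0.03 ± 0.14 (SE, limma adjusted p = 0.897), with a 95% interval from -0.31 to 0.36. That interval runs from 0.808 to 1.28 as a ratio of ‘Heritage’ to ‘Wakefield’. Its spread within cultivars was ordinary, larger than that of 52.1% of the 6585 gene models with a mean within 2-fold of its own.

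CDF1, on LG4 at 3061484 bp, was 4.26-fold higher in ‘Heritage’. Its normalized counts were 683, 471 and 238 in ‘Heritage’ libraries 62, 63 and 64, and 103, 126 and 97.3 in ‘Wakefield’ libraries 59, 60 and 61. The lowest ‘Heritage’ library was 1.89-fold above the highest ‘Wakefield’ library. The log2 fold change was 1.96 ± 0.38 (SE, limma adjusted p = 0.0139), with a 95% interval from 1.02 to 2.90. The ‘Wakefield’ libraries lay within 1.30-fold of each other, while ‘Heritage’ spanned 2.87-fold from library 64 to library 62. On the log2 scale the within-cultivar SD of CDF1, 0.56, was larger than that of 95.6% of the 6383 gene models with a mean within 2-fold of its own. Without ‘Heritage’ library 63 the log2 fold change was 1.89 (limma adjusted p = 0.0548), and CDF1 was then not called.

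The B-box gene, on LG4 at 5093070 bp and 2.03 Mb from CDF1, had only a few reads in ‘Wakefield’ and was higher in ‘Heritage’. It had normalized counts of 13.2, 3.11 and 3.71 in ‘Wakefield’ libraries 59, 60 and 61, and of 73.2, 71.8 and 53.3 in ‘Heritage’ libraries 62, 63 and 64. Library 59 was the highest of ‘Wakefield’, and the lowest ‘Heritage’ library was still 4.06-fold above it. The ‘Wakefield’ values rest on 14, 2 and 5 reads and the ‘Heritage’ values on 70, 79 and 56, so that counting error is large in ‘Wakefield’. The mean was 9.93-fold higher in ‘Heritage’, and the log2 fold change was 3.35 ± 0.48 (SE, limma adjusted p = 0.00552), with a 95% interval from 2.17 to 4.54. A larger change in either direction was found for few gene models, since 97.4% of those tested had a smaller one. The B-box gene was called with each library left out in turn, with log2 fold changes from 3.02 to 3.92 and adjusted p-values of 0.0282 or lower from limma. It was the 1 gene model of the 4 that met a stricter rule (limma adjusted p under 0.01 with a log2 fold change above 1), as did 4.45% of all gene models tested in the same direction and 5.17% in the opposite direction.

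LSH10, on LG3 at 40250950 bp and 0.777 Mb from PHYE, varied more within cultivars than between them. Its normalized counts were 109, 306 and 244 in ‘Wakefield’ libraries 59, 60 and 61, and 108, 165 and 174 in ‘Heritage’ libraries 62, 63 and 64. Library 59 of ‘Wakefield’ and library 62 of ‘Heritage’ were almost level at the low end, and ‘Wakefield’ alone spanned 2.81-fold. The log2 fold change was -0.46 ± 0.42 (SE, limma adjusted p = 0.426), with a 95% interval from -1.48 to 0.56. The interval thus includes ratios of ‘Heritage’ to ‘Wakefield’ from 0.358 to 1.48, so that these libraries settle neither the size nor the direction of a difference. Its within-cultivar SD of 0.61 on the log2 scale exceeded that of 94.98% of the 5594 gene models with a mean within 2-fold of its own. Without library 59 the log2 fold change was -0.90 (limma adjusted p = 0.0529).

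Other genes of light signalling and the photoperiod pathway, matched by Arabidopsis orthologue in the mapped intervals, went different ways. They came from a list set by hand, which is not exhaustive and leaves out, for example, the blue-light gene JAC1 (Ro03_G15322). With the 4 gene models above, the list held 18, of which 17 could be tested, and 5 were higher in ‘Heritage’, 1 was lower and 11 did not pass (adjusted p under 0.05 from limma). Over all gene models tested 33.5% were called, 16.0% higher and 17.5% lower, so that 6 calls among 17 is near the share over all gene models. Leaving out CDF1, PHYE, LSH10 and the B-box gene, 3 of 13 were higher and 1 was lower. The median log2 fold change of the 17 was 0.14, against 0.01 over all gene models tested. The whole list was set with earlier results of these data known. PFT1, PHYE and LSH10 are also among the genes that the study singled out with these samples. The count therefore gives no independent evidence of direction. Without ‘Heritage’ library 63 the list had 2 higher and 1 lower.

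**Figure D2:**
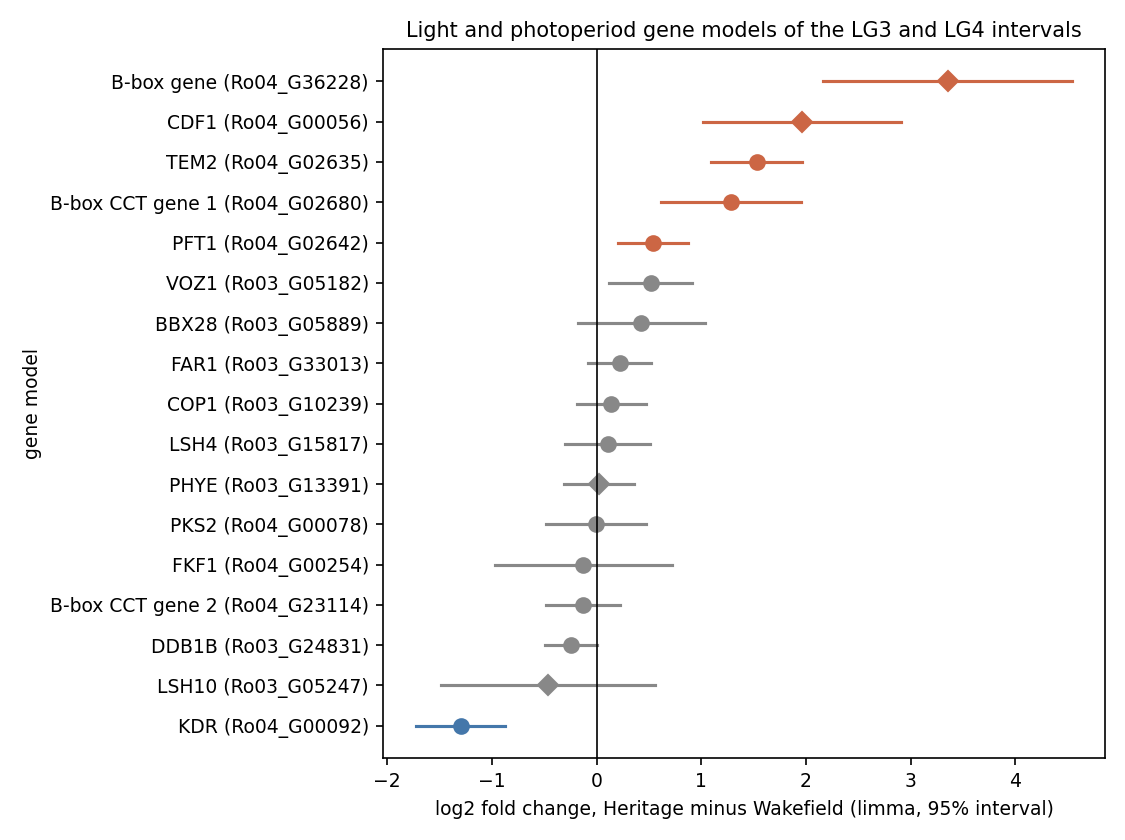
Log2 fold change of ‘Heritage’ minus ‘Wakefield’ (x-axis) for the 17 light and photoperiod gene models tested (y-axis), with lines for the 95% interval from limma (n = 3 libraries per cultivar). Diamonds are PHYE, CDF1, the B-box gene and LSH10, orange marks gene models higher, blue lower and grey those that did not pass. The B-box gene and CDF1 have the highest values, 3.35 and 1.96, and KDR the lowest, -1.30.

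Among photoreceptors, FKF1 (Ro04_G00254) did not pass the test, like PHYE. FKF1 is the receptor that marks CDF1 for degradation in Arabidopsis. It had normalized counts of 68.6, 174 and 104 in ‘Wakefield’ libraries 59, 60 and 61 and of 84.8, 118 and 95.2 in ‘Heritage’ libraries 62, 63 and 64. The groups overlapped, with a log2 fold change of -0.13 (limma adjusted p = 0.801). Library 60 was the highest of ‘Wakefield’ for FKF1, as it was for LSH10 and CDF1.

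The photoreceptor partners and the repressors of light signalling that were tested did not pass in limma. VOZ1 (Ro03_G05182), which interacts with phytochrome B and promotes flowering in Arabidopsis, came closest, with 2785, 2182 and 1997 in ‘Heritage’ libraries 62, 63 and 64 and 1441, 1790.1 and 1601 in ‘Wakefield’ libraries 59, 60 and 61. These groups did not overlap. Its log2 fold change was 0.52 (limma adjusted p = 0.0545). On the recovered reads edgeR gave an adjusted p of 0.0272 and DESeq2 one of 0.00576. VOZ1 passed under 6 of 15 alternatives, but not with any library left out (limma adjusted p of 0.0631 or higher). FAR1 (Ro03_G33013), a transcription factor of phytochrome A signalling, PKS2 (Ro04_G00078), of the phytochrome kinase substrate family, and COP1 (Ro03_G10239), a ubiquitin ligase that removes CONSTANS in the dark, had log2 fold changes of 0.22, -0.00491 and 0.14 (limma adjusted p = 0.210, 0.988 and 0.453). DDB1B (Ro03_G24831), an adaptor of ubiquitin ligases, had a log2 fold change of -0.25 (limma adjusted p = 0.109). CIB1 (Ro04_G08840), a cryptochrome-interacting factor, was read at 0.952 to 11.9 in the 6 libraries and fell under the filter. KDR (Ro04_G00092), a small helix-loop-helix protein that interferes with the light signalling factor HFR1 in Arabidopsis, was the 1 list member lower in ‘Heritage’. Its normalized counts were 12.6, 17.3 and 13.3 in ‘Heritage’ and 31.9, 43.5 and 34.9 in ‘Wakefield’, a log2 fold change of -1.30 ± 0.17 (SE, limma adjusted p = 0.00442).

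Besides CDF1, a further repressor of FT known from Arabidopsis was higher in ‘Heritage’. TEM2 (Ro04_G02635, at 4444967 bp of LG4) had normalized counts of 1110.1, 872 and 779.9 in ‘Heritage’ libraries 62, 63 and 64, and of 323, 271 and 357 in ‘Wakefield’ libraries 59, 60 and 61. The lowest ‘Heritage’ library was 2.18-fold above the highest ‘Wakefield’ library. The log2 fold change was 1.53 ± 0.18 (SE, limma adjusted p = 0.00292), and TEM2 was called with each library left out in turn. PFT1 (Ro04_G02642), a Mediator subunit that promotes FT expression in Arabidopsis, was also higher, by a smaller step. Its normalized counts were 1217, 1167 and 1221 in ‘Heritage’ and 951, 703 and 844 in ‘Wakefield’. The log2 fold change was 0.54 (limma adjusted p = 0.0283), and PFT1 lost its call when any library other than 59 was left out. FT and CONSTANS themselves were not analysed here, since the gene names used cover only the mapped intervals.

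The B-box family held 4 gene models of the list, of which 2 were higher in ‘Heritage’ and 2 did not pass. The share higher over all gene models tested was 16.0%, and 33.5% were called in either direction. Besides Ro04_G36228, the higher one was Ro04_G02680 (orthologue AT1G25440, at 4713569 bp of LG4), which carries a CCT domain as CONSTANS does. Ro04_G02680 had normalized counts of 65.9, 48.2 and 44.8 in ‘Heritage’ libraries 62, 63 and 64 and of 30.1, 15.6 and 19.3 in ‘Wakefield’ libraries 59, 60 and 61. The groups did not overlap, and the log2 fold change was 1.28 ± 0.27 (SE, limma adjusted p = 0.0175). It was not called without ‘Heritage’ library 62 (limma adjusted p = 0.0597) or library 63 (limma adjusted p = 0.0551). As for Ro04_G36228, library 59 was the highest of the ‘Wakefield’ libraries. The other CCT-domain gene model, Ro04_G23114 (orthologue AT2G33500), had a log2 fold change of -0.13 (limma adjusted p = 0.504). BBX28 (Ro03_G05889), which interferes with the light signalling factor HY5 in Arabidopsis seedlings, had a log2 fold change of 0.43 (limma adjusted p = 0.227), with overlapping groups. The sources used here do not say how reads that related genes share were counted.

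The ALOG family was represented by LSH10 and LSH4 (Ro03_G15817), which marks the boundaries of shoot organs in Arabidopsis. LSH4 had normalized counts from 1340.3 to 1984 in ‘Wakefield’ and from 1594 to 1778 in ‘Heritage’, a log2 fold change of 0.10 (limma adjusted p = 0.654). The highest ‘Wakefield’ library was 1.48-fold above the lowest for LSH4 and 2.81-fold for LSH10, with library 60 the highest for both.

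Beside the higher CDF1 and B-box transcripts, 5 of 7 light-regulated gene models of photosynthesis, which also mark green leaf tissue, were lower in ‘Heritage’ (limma adjusted p under 0.05), against 17.5% of all gene models tested. None was higher, and PSBQ and PSBY did not pass (limma adjusted p = 0.0575 and 0.0595). The median log2 fold change of the 7 was -0.79. The 7 were chosen with earlier results of these data known, so that their count gives no independent evidence of direction. Outside the 7, the photorespiration gene glycolate oxidase 1 (Ro03_G33049) was higher in ‘Heritage’ (log2 fold change 3.03, limma adjusted p = 0.00518). RBCS1A (Ro04_G02684), the small subunit of Rubisco, had normalized counts of 18.8, 32.7 and 29.5 in ‘Heritage’ and 213, 191 and 112 in ‘Wakefield’, a log2 fold change of -2.61 (limma adjusted p = 0.00324). The antenna gene LHCA2 (Ro04_G07134) had a log2 fold change of -1.52 (limma adjusted p = 0.00234). Summed over the 7, the normalized counts were 9169.8 to 10379.5 in ‘Heritage’ and 14878 to 20528 in ‘Wakefield’, and none was at 0 in any library. The count of 5 was 3 without ‘Wakefield’ library 60 and without ‘Heritage’ library 62 or 63, and 7 in edgeR or DESeq2. In whole buds fewer cells of a type and less RNA per cell cannot be told apart, and the part of leaf tissue in the values of CDF1 and the B-box gene was not tested.

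Markers of the epidermis and of floral organs differed between ‘Wakefield’ libraries. None of the 4 gene models passed in limma, where 1 had an unadjusted p under 0.05. ATML1 passed in edgeR (adjusted p = 0.0255), and ATML1, AGAMOUS and SEP3 model Ro04_G07112 passed in DESeq2 (adjusted p = 0.00331, 0.0299 and 0.00188). The 2 gene models nearest to the floral gene SEP3 were at 356 (Ro04_G02528) and 221 (Ro04_G07112) in library 59, and at 68.4 and 29.5 in library 60 and 36.4 and 7.43 in library 61. In ‘Heritage’ Ro04_G02528 was at 81.9 to 103 and Ro04_G07112 at 6.36 to 11.4. The floral gene AGAMOUS (Ro03_G05331) was at 84.5, 129 and 36.4 in ‘Wakefield’ libraries 59, 60 and 61 and at 26.2 to 40.9 in ‘Heritage’, and the epidermal ATML1 (Ro03_G10561) at 965, 574 and 606 and at 350.4 to 469.8. Summed over the 4, the normalized counts were 481 to 603 in ‘Heritage’ and 686 to 1626 in ‘Wakefield’. ATML1 was the largest part of the sum in each library. Its groups did not overlap, while those of both SEP3 gene models and of AGAMOUS did. Library 59, the highest in SEP3, was also the highest of ‘Wakefield’ in the B-box gene and the lowest in LSH10. Without it the log2 fold change was 3.92 for the B-box gene (limma adjusted p = 7.3e-04) and 1.93 for CDF1 (limma adjusted p = 0.0352).

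To show which transcripts moved most like each of the 4, the log2 values of every gene model were centred on their own mean over the 6 libraries, and the root mean square difference from the gene's own profile was taken over 1278 described gene models of the intervals. For CDF1 the closest was Ro03_G13479 (APR, orthologue AT4G04610), an adenylylsulfate reductase of sulfate assimilation, at a difference of 0.23 on the log2 scale against a median of 1.10. It had normalized counts of 9781, 6341 and 4137 in ‘Heritage’ libraries 62, 63 and 64 and of 2190.5, 1764 and 1422 in ‘Wakefield’ libraries 59, 60 and 61. Library 62 was thus the highest and library 64 the lowest of ‘Heritage’, as for CDF1. The next was MYB62 (Ro04_G02702), a transcription factor of the phosphate response, at 0.36. The closest gene models, here and below, were picked by their likeness. A similar order of libraries and a difference below the median therefore follow from the choice and are no separate evidence.

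For the B-box gene the closest were glycolate oxidase 1 (Ro03_G33049), an enzyme of photorespiration, at 0.24 and WRKY75 (Ro04_G07106), a transcription factor of phosphate starvation and defence, at 0.32, against a median of 1.79. Glycolate oxidase 1 had 7980.1, 5699 and 5014 in ‘Heritage’ and 1434, 551 and 528 in ‘Wakefield’, so that library 59 was the highest of ‘Wakefield’ there too. For LSH10 the closest were thioredoxin 2 (Ro04_G00423) at 0.15 and JAC1 (Ro03_G15322), which is needed for chloroplast movement towards weak blue light in Arabidopsis, at 0.22, against a median of 0.61. JAC1 had 268, 544 and 357 in ‘Wakefield’ libraries 59, 60 and 61 and 218, 301 and 320.0 in ‘Heritage’ libraries 62, 63 and 64, with library 60 the highest as for LSH10. For PHYE the closest were a G-patch domain gene (Ro04_G23444) at 0.0511 and the peroxisomal membrane protein gene PMP22 (Ro03_G13487) at 0.0629, against a median of 0.30, and neither was called (limma adjusted p = 0.563 and 0.572).

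**Figure D3:**
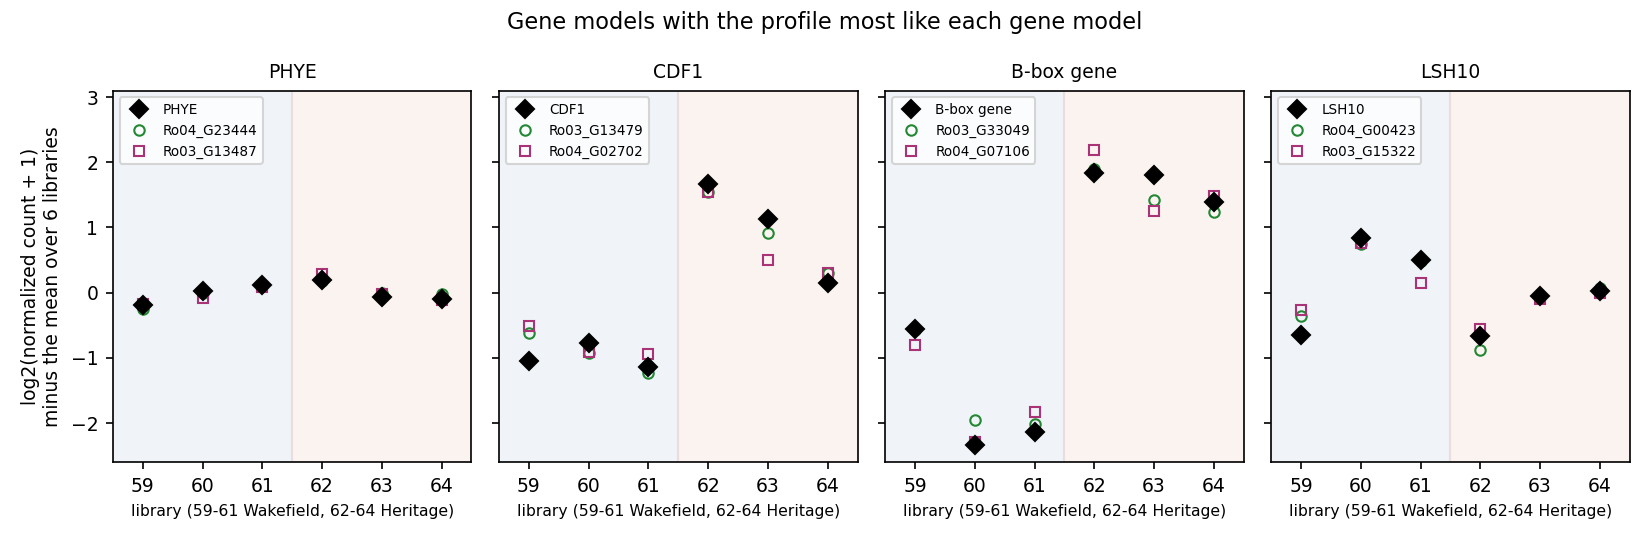
Log2(normalized count + 1) minus its mean over the 6 libraries (y-axis) by library (x-axis, ‘Wakefield’ 59 to 61 on blue, ‘Heritage’ 62 to 64 on orange) for PHYE, CDF1, the B-box gene and LSH10 (black diamonds) and the 2 described gene models with the closest profile (open symbols). Root mean square differences of the closest are 0.0511 for PHYE, 0.23 for CDF1, 0.24 for the B-box gene and 0.15 for LSH10.

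The genomic neighbours of each gene were compared by taking the 5 listed gene models on either side. The list gives 1 position per gene model, and another table of the study places PHYE a few kb away, so that short distances are approximate. For CDF1, 9 of 10 neighbours were tested, 1 was higher and 1 was lower in ‘Heritage’, with log2 fold changes from -1.30 to 0.39, all below that of CDF1. These 2 calls of 9 compare with 33.5% called over all gene models tested. The lower one was MYB117 (Ro04_G00054), a regulator of organ separation in Arabidopsis, at 10.3 kb from CDF1. MYB117 had 142, 138 and 129.5 in ‘Heritage’ and 217, 216 and 206 in ‘Wakefield’ (log2 fold change -0.64, limma adjusted p = 0.00555). The higher one was a galactosyltransferase gene (Ro04_G36169, log2 fold change 0.39, limma adjusted p = 0.0375). It lost its call when any library other than 61 was left out (limma adjusted p up to 0.124).

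For the B-box gene, 1 of 9 tested neighbours was higher and none was lower, against 16.0% and 17.5% of all gene models tested. It was Ro04_G36229, which has no described orthologue, lies 20.1 kb away and is named here after its values were seen. Ro04_G36229 was at 129.7, 116 and 101 in ‘Heritage’ and at 11.3, 9.33 and 46.8 in ‘Wakefield’ (log2 fold change 2.67, limma adjusted p = 0.0191). It was not called without library 60, 62, 63 or 64 (limma adjusted p up to 0.0691). The median log2 fold change of the 9 was 0.47.

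Of the 9 tested neighbours of PHYE, 2 were higher and 1 was lower in ‘Heritage’, which is about the share called over all gene models tested (33.5%). COR314-TM2 (Ro03_G13396), which encodes a thylakoid membrane protein induced by cold and lies 38.7 kb away, had 222, 254 and 306 in ‘Heritage’ and 746, 742 and 676 in ‘Wakefield’ (log2 fold change -1.48, limma adjusted p = 0.00184). UMAMIT40 (Ro03_G13393), of a family of amino acid transporters and 15.8 kb away, had 738, 706 and 529 in ‘Heritage’ and 292, 249 and 92.1 in ‘Wakefield’ (log2 fold change 1.78, limma adjusted p = 0.0291). UMAMIT40 was not called without library 60, 62, 63 or 64 (limma adjusted p up to 0.0956). AML5 (Ro03_G13390), the nearest listed, had a log2 fold change of 0.35 (limma adjusted p = 0.0303) and lost its call when any library other than 59 was left out (limma adjusted p up to 0.115). COR314-TM2 was called with each library left out in turn.

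Of the 10 neighbours of LSH10, all tested, 1 was higher and 1 was lower, a smaller share than the 33.5% called over all gene models tested. PYL12 (Ro03_G05255), an abscisic acid receptor gene 33.2 kb away, had 1082, 987 and 794 in ‘Heritage’ and 411, 386 and 227 in ‘Wakefield’ (log2 fold change 1.52, limma adjusted p = 0.00924). GF14 IOTA (Ro03_G05242), a 14-3-3 protein gene, had a log2 fold change of -0.47 (limma adjusted p = 0.0168), and was not called without library 60, 62, 63 or 64 (limma adjusted p up to 0.0747).

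**Figure D4:**
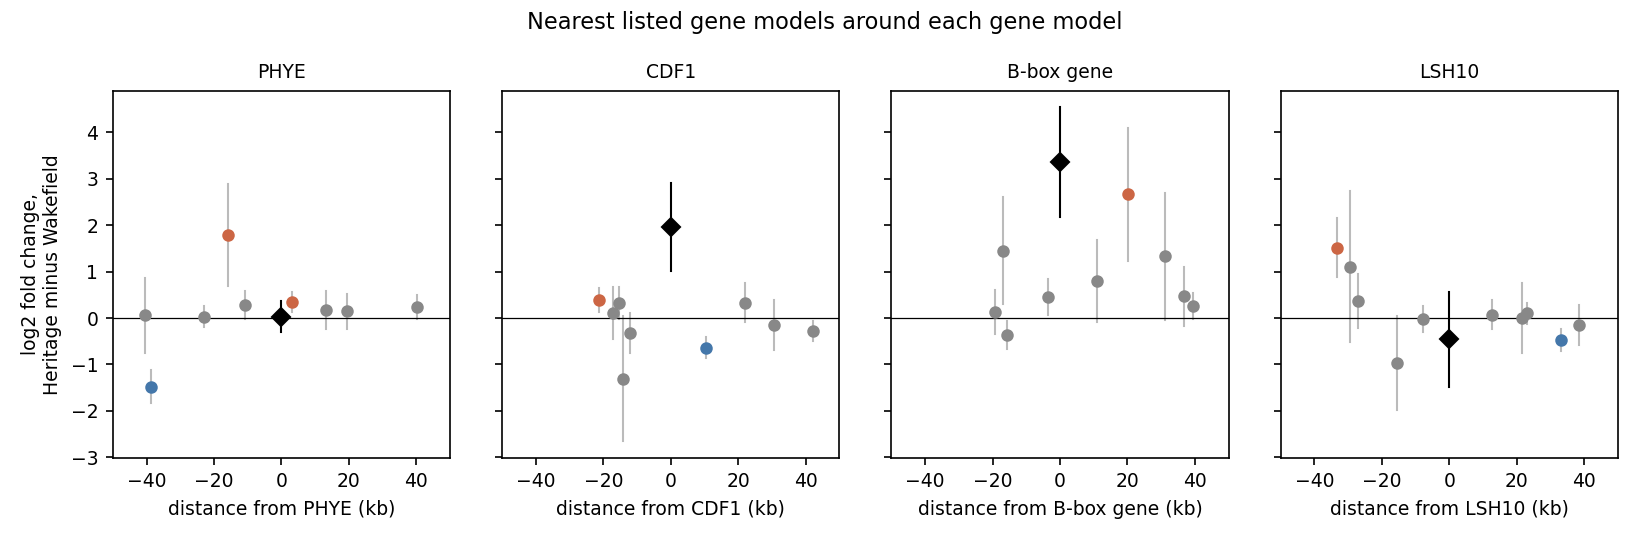
Log2 fold change of ‘Heritage’ minus ‘Wakefield’ (y-axis, lines are the 95% interval from limma, n = 3 libraries per cultivar) against distance in kb (x-axis) for the tested gene models among the 5 listed on either side of PHYE, CDF1, the B-box gene and LSH10 (black diamonds at 0). Orange marks higher, blue lower and grey gene models that did not pass. CDF1 at 1.96 stands above its neighbours, which reach 0.39, and the B-box gene at 3.35 has a neighbour at 2.67.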

How the data were processed

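Total RNA from axillary buds of ‘Heritage’ and ‘Wakefield’ (3 samples each) was sequenced in pairs from a stranded kit. The authors filtered the reads with Trimmomatic and SortMeRNA, aligned them with STAR to gene models of black raspberry (assembly ORUS 4115-3 v3.0, R. occidentalis) and scaled the counts with DESeq2. How reads were counted, and whether by strand, is not stated in the labels or methods, and reads that differ from the black raspberry sequence may align less often. The deposited values are a signal, the counts divided by the authors' size factor of each library. All values in each library were whole multiples of 1 step (100% of them within 0.001 of a read), from which whole reads were recovered. The deposited table also holds the authors' own fold changes and p-values, which were not used.

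Gene models reaching 10 in 3 or more libraries were tested two-sided on log2(value + 1) with limma 3.58.1 (R 4.3.3), with Benjamini-Hochberg adjustment over all 17898. The added 1 shrinks the log2 fold change of low genes, but other steps also move it. For the B-box gene it was 3.35 in limma, against 3.24 in edgeR and 3.27 in DESeq2. Alternatives were edgeR 4.0.16 and DESeq2 1.42.0 on the recovered reads, other pseudocounts and filters, a variance trend, a stricter threshold and each library left out. With a library left out, the filter was 10 in 2 or more libraries. The test and its adjustment then covered 18159 to 18242 gene models. On simulated data of this comparison, with 17851 gene models tested, limma recovered 26 of 100 changes of 2-fold and 93 of 100 of 4-fold. It made 11 false calls there. The counts were 53 and 99 for edgeR, with 14 false calls, and 76 and 98 for DESeq2, with 50. The simulated data held far fewer changes than the 5994 gene models called in the real data. Recovery with as many changes, or at the low level of the B-box gene, was not tested. Names, orthologues and positions come from the part of the study's interval list used here (1998 gene models, 1785 with an orthologue), and its expression values were not used. The genes named are the 4 gene models, the lists, the 2 closest profiles and the called, described neighbours of each. The gene models and lists were chosen with earlier results of these data known. Tables and figures were made in Python 3.11.15.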

Additional observations from a re-analysis of the deposited data

How the results depend on the processing

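Relative to ‘Wakefield’, the B-box gene stayed higher and called under every alternative, CDF1 under all but 2, and PHYE and LSH10 passed under none. Under the stricter threshold (limma adjusted p under 0.01 with a log2 fold change over 1) CDF1, at 1.96, was not called. The 4 gene models then held 1 call, the light and photoperiod list 3, the photosynthesis list 2 and all gene models 1722 rather than 5994. With each library left out in turn, the log2 fold change ranged from -0.0672 to 0.0909 for PHYE, from 1.62 to 2.38 for CDF1, from 3.02 to 3.92 for the B-box gene and from -0.90 to -0.16 for LSH10. PHYE turned negative without ‘Wakefield’ library 59 (-0.0608) or ‘Heritage’ library 62 (-0.0672). Calls ranged from 1 to 2 among the 4, from 3 to 6 in the light and photoperiod list, from 3 to 7 in the photosynthesis list and from 3068 to 5784 over all gene models. The lowest of these came without ‘Heritage’ library 63, and there were 3507 without library 62, with fewer samples in the fit. Among the other named genes, leaving out a library turned the sign of FKF1 (-0.45 to 0.22), PKS2 (-0.15 to 0.13), LSH4 (-0.0127 to 0.27), SEP3 Ro04_G02528 (-0.73 to 0.90) and Ro03_G13487 (-0.0051 to 0.19), none of which was called. The cause was not tested.

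With edgeR on the recovered reads 6664 gene models were called, and with DESeq2 6835. CDF1 had an adjusted p of 0.00468 in edgeR and 3.8e-08 in DESeq2. The log2 fold change of the B-box gene depends on the pseudocount, at 3.59 with 0.1 and 2.23 with 10, since its ‘Wakefield’ values are low. Its ‘Wakefield’ libraries hold 2 to 14 reads of this gene, which limits the precision of its fold change. No paired analysis was run, because the labels and methods give no pairing between libraries of the cultivars.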

Other observations

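Within ‘Heritage’, library 62 held the highest value for 11 of the 17 light and photoperiod gene models tested, against 42.2% of all gene models tested, and library 64 the lowest for 8, against 37.4%. Within ‘Wakefield’, library 60 was the highest for 9, against 32.0%, and library 59 the lowest for 9, against 35.8%. These counts describe the libraries, and no test was run on them. Over all gene models tested, the median within-cultivar SD on the log2 scale was 0.15 in ‘Heritage’ and 0.20 in ‘Wakefield’.

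CIB1 (Ro04_G08840), the 1 gene model of the light and photoperiod list below the filter, had normalized counts of 7.51, 1.56 and 11.9 in ‘Wakefield’ libraries 59, 60 and 61 and of 4.19, 5.45 and 0.952 in ‘Heritage’ libraries 62, 63 and 64, with overlapping groups.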
